A study of Mus musculus with 8 samples.

Results

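The enzymes that write, maintain and remove DNA methylation were followed across the cell classes, stages and genotypes of a single-cell RNA-seq study of chimaeric mouse embryos. The 9 genes were chosen by name from the 55422 features of the count matrices: Dnmt1, Uhrf1, Dnmt3a, Dnmt3b, Dnmt3l, Tet1, Tet2, Tet3 and Tdg. Embryonic stem cells of 1 line, deficient for Tet1, Tet2 and Tet3 (Tet-TKO, background C57BL/6J-129Sv) and carrying a CAG-driven H2B-tdTomato reporter, had been injected into C57BL/6J host blastocysts. Pooled embryos were dissociated at embryonic day 7.5 (E7.5) or 8.5 (E8.5), and tdTomato-positive cells (Tet-TKO) were sorted from tdTomato-negative cells (WT host). Each genotype had 1 library at E7.5, and E8.5 had 4 Tet-TKO and 2 WT host libraries. Strain background and the reporter go with genotype in this design, so their parts cannot be told apart. Nothing in the labels says that libraries of a group came from separate litters, so p-values measure the spread between these libraries only. All cells came from chimaeric embryos, and a cell sorted as WT host is a neighbour of Tet-TKO cells rather than a cell of an unmanipulated embryo.

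DNA methylation in mammals sits mostly on cytosines that precede guanine. DNMT3A and DNMT3B add new methyl groups, with DNMT3L as a partner that has no catalytic activity of its own. At replication UHRF1 recognises hemimethylated DNA and brings in DNMT1, which copies the mark to the new strand. TET1, TET2 and TET3 oxidise methylcytosine, and TDG, a thymine DNA glycosylase, cuts out the most oxidised forms so that base excision repair can restore unmethylated cytosine. In the mouse embryo around gastrulation the epiblast carries high levels of the de novo machinery, while the extraembryonic lineages and the germ line follow programmes of their own.

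The 8 libraries held between 65601218 and 136982886 unique molecular identifiers (UMIs, counted RNA molecules), and between 1012 and 9552 cells passed the filters. Levels are given below as CPM, the gene's UMIs scaled to a total of 1000000 UMIs over the same cells. tdTomato stood at 71.5 CPM in the E7.5 Tet-TKO library and 0.444 CPM in the E7.5 WT host library, and at 93.1 to 144 CPM against 0.503 and 0.938 CPM at E8.5, so each library matched its sort. E8.5 Tet-TKO libraries 3 and 4 stood apart from all others: they held 2304 and 1012 cells with medians of 40386.5 and 68704 UMIs per cell, whereas the medians of the other 6 libraries lay between 12176 and 20741. The tests at E8.5 were also run without them, a setting chosen after the data were seen. It takes out the E8.5 Tet-TKO libraries whose Tdg and Tet1 lay closest to the WT host. At most 29 cell barcodes were shared by any pair of libraries, at most 0.404% of the smaller one.

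The 9 genes lie on 7 chromosomes of mm10 (GENCODE M21 positions). Dnmt1 is at chr9:20907209-20959888 on the minus strand, Uhrf1 at chr17:56303321-56323486 on the plus strand, Dnmt3a at chr12:3806007-3914443 (plus), Dnmt3b at chr2:153649450-153687730 (plus) and Dnmt3l at chr10:78041947-78063622 (plus). Tet1 is at chr10:62804570-62908996 (minus), Tet2 at chr3:133463679-133545139 (minus), Tet3 at chr6:83362373-83459084 (minus) and Tdg at chr10:82629828-82650799 (plus). RefSeq promoter windows of 300 bases, from 250 bases before to 50 bases after a start site on GRCm38.p6, were available for all 9 genes, 16 windows in all because some genes have several starts.

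The promoters below are shown for the 2 members with a motif match and for a pair of de novo genes with unlike CG content. Dnmt1 and Uhrf1, which act together at replication, were searched for the E2F octamers TTTCCCGC, TTTCGCGC, TTTGCCGC and TTTGGCGC on both strands, the site bound by the E2F factors of S phase. Of the members' 16 windows, 2 held such a match: 1 window of Dnmt1 with 2 matches and 1 of Uhrf1 with 1. Over all genes, 744 of 32851 windows (2.26%) held one. The Dnmt1 window is chr9:20952574-20952873 (minus strand) and the Uhrf1 window is chr17:56304063-56304362 (plus strand), each written 5′ to 3′ with the octamers in capitals.
Dnmt1: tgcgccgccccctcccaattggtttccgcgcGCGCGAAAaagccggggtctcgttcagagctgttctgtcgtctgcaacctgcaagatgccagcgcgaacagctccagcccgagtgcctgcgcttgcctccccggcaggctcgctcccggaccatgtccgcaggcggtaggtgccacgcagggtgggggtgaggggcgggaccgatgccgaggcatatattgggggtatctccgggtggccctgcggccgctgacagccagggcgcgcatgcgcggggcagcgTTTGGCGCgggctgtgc
Uhrf1: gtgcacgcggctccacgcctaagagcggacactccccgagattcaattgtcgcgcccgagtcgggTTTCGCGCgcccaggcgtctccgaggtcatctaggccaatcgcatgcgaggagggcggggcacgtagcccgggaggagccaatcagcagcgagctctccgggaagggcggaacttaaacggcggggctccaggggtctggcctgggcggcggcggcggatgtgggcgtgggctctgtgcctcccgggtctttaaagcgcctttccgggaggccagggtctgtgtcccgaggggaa
The other windows of Dnmt1 and Uhrf1 held no match, and a match is a description of these letters, not evidence of binding. Dnmt3b and Dnmt3l, which act in the same methylation complex, had promoters that differed in CG dinucleotides, the substrate of the enzymes themselves. The Dnmt3b window (chr2:153649199-153649498, plus strand) held 30 CG dinucleotides, a count reached by 11.7% of all windows. The 5′ window of Dnmt3l (chr10:78042037-78042336, plus strand) held 6, and 47.9% of all windows held 6 or fewer. CG dinucleotides are in capitals.
Dnmt3b: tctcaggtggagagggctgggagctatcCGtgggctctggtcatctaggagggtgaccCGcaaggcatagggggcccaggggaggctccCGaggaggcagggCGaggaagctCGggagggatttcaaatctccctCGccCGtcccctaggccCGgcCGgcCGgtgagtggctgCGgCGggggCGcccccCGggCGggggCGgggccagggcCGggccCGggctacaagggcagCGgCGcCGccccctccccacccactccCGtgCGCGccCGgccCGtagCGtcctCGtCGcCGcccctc
Dnmt3l: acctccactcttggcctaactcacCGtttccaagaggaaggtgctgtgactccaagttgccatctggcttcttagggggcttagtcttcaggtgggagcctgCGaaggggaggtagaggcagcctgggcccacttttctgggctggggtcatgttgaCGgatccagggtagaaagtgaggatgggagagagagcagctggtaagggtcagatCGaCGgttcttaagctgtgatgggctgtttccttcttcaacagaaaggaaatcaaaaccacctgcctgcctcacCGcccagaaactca
The other Dnmt3l windows held 4 and 3 CG dinucleotides. Among the erasers the Tet2 window held 57, the Tdg window 26, the Tet3 window 22 and the Tet1 window 17, against a median of 7 over all windows.

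The maintenance genes were the most even of the set. Dnmt1 stood at 96.8 CPM in the E7.5 WT host library and at 90.8 and 105 CPM in the E8.5 WT host libraries. In Tet-TKO cells Dnmt1 was 87.1 CPM at E7.5 and 95.2, 102, 123 and 121 CPM in E8.5 libraries 1 to 4. The genotypes overlapped at E8.5, and the 2 highest values were those of libraries 3 and 4. Uhrf1 was 134 CPM in the E7.5 WT host library and 120 and 137 CPM in the E8.5 WT host libraries, against 111 CPM in E7.5 Tet-TKO cells and 111, 118, 128 and 135 CPM in the 4 E8.5 Tet-TKO libraries. These ranges overlapped as well. The ratio of the E8.5 mean to the E7.5 value was 1.01 for Dnmt1 and 0.960 for Uhrf1 in WT host cells.

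Of the de novo genes, Dnmt3b differed far more by stage than by genotype. It stood at 431 CPM in E7.5 WT host cells and 388 CPM in E7.5 Tet-TKO cells. At E8.5 it was 80.0 and 62.3 CPM in the WT host libraries and 72.8, 65.1, 52.2 and 51.3 CPM in the Tet-TKO libraries. The E7.5 level was 6.06 times the E8.5 mean in WT host cells and 6.42 times in Tet-TKO cells, and no E8.5 library came near an E7.5 value. With a single E7.5 library per genotype this difference has no replicate check. For comparison, 6.5% of 18482 genes in WT host cells were at least 2-fold lower at E8.5 than at E7.5 and 9.74% at least 2-fold higher. Dnmt3a was 30.2 CPM in E7.5 WT host and 34.98 CPM in E7.5 Tet-TKO cells, and 20.1 and 20.8 CPM in the E8.5 WT host libraries. The 4 E8.5 Tet-TKO libraries held 22.4, 23.0, 39.1 and 40.9 CPM of Dnmt3a. All 4 lay above both WT host libraries, libraries 1 and 2 by a small margin and libraries 3 and 4 by almost 2-fold.

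Dnmt3l was the most unequal member. It stood at 35.7 CPM in the E7.5 WT host library and 1.60 CPM in the E7.5 Tet-TKO library. At E8.5 the WT host libraries held 3.22 and 1.08 CPM and the Tet-TKO libraries 0.234, 0.171, 0.0838 and 0.0615 CPM, from 32, 21, 8 and 4 UMIs. Every Tet-TKO library was thus below both WT host libraries.

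The Tet genes still gave UMIs in Tet-TKO cells. The sources used here do not state which parts of the genes were deleted, and a 3′ tag outside a deletion does not check it, so these values are RNA counts and not functional enzyme. Tet1, the main TET of the epiblast, was 27.6 CPM in E7.5 WT host and 13.4 CPM in E7.5 Tet-TKO cells. At E8.5 it was 22.5 and 20.4 CPM in the WT host libraries and 9.93, 10.96, 20.1 and 20.9 CPM in the Tet-TKO libraries. Libraries 1 and 2 averaged 0.486 of the WT host mean and libraries 3 and 4 averaged 0.952, with library 4 inside the WT host range. Tet2, known for its part in blood formation, was 2.96 and 2.50 CPM in WT host and Tet-TKO cells at E7.5. In the E8.5 WT host libraries Tet2 was 4.67 and 4.63 CPM, and in the Tet-TKO libraries 5.99, 5.55, 10.5 and 9.71 CPM, all above the WT host values. Tet3, the TET of the oocyte and of many differentiating tissues, was 14.1 CPM in WT host and 9.51 CPM in Tet-TKO cells at E7.5. At E8.5 Tet3 was 23.1 and 23.2 CPM in the WT host libraries and 23.5, 22.5, 37.5 and 36.4 CPM in the Tet-TKO libraries, where only libraries 3 and 4 stood clear of the WT host. From E7.5 to the E8.5 mean Tet2 was 1.57 times and Tet3 1.65 times higher in WT host cells, whereas Tet1 was 0.779 times its E7.5 level. In Tet-TKO cells the same ratios were 3.18, 3.15 and 1.154, and without E8.5 libraries 3 and 4 they were 2.31, 2.42 and 0.780.

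Tdg, which completes the active removal begun by the TET enzymes, was lower in Tet-TKO cells at both stages. It stood at 82.5 CPM in E7.5 WT host and 40.5 CPM in E7.5 Tet-TKO cells. At E8.5 the WT host libraries held 71.5 and 75.4 CPM and the Tet-TKO libraries 34.8, 38.8, 55.9 and 66.0 CPM. No Tet-TKO library reached a WT host library. Libraries 1 and 2 averaged 0.501 of the WT host mean and libraries 3 and 4 averaged 0.830.

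**Figure D1:**
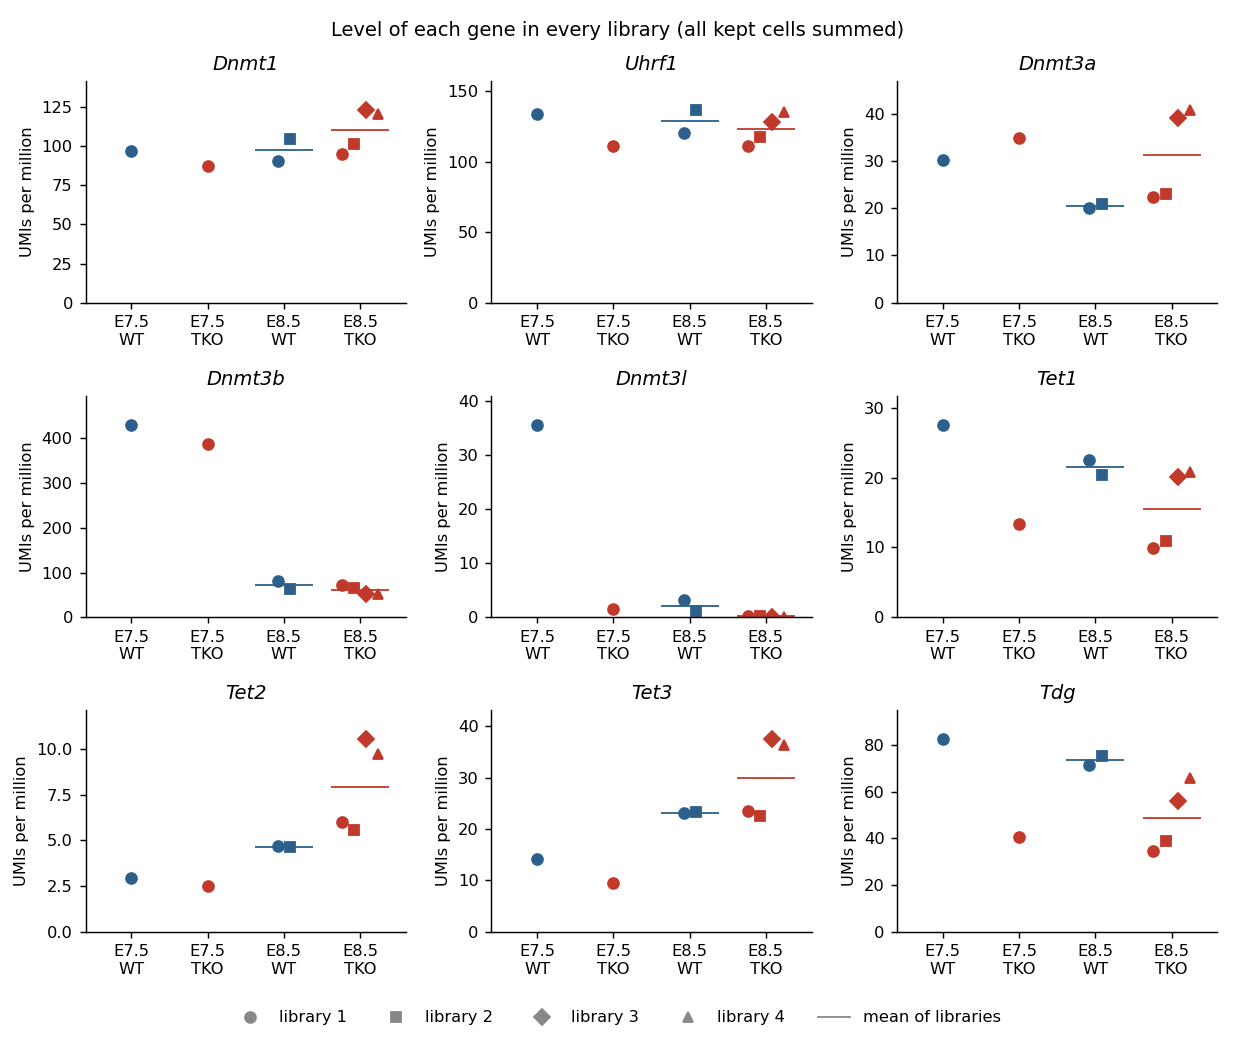
Level (CPM) of each of the 9 genes in every library, all kept cells summed. Blue points are WT host and red points Tet-TKO, the marker shape gives the library number and the line the mean of the E8.5 libraries of a genotype. Dnmt3b is at 431 CPM (WT host) and 388 CPM (Tet-TKO) at E7.5 and at most 80.0 CPM at E8.5, and the E8.5 Tet-TKO libraries split into the pair 1 and 2 and the pair 3 and 4 for Dnmt3a, Tet1, Tet2, Tet3 and Tdg.

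At E7.5 a single library stood for each genotype, and the log2 ratio of Tet-TKO to WT host carries only a 95% counting interval from exact binomial limits on the UMIs. The ratio was −1.04 for Tet1 (−1.14 to −0.95), −1.03 for Tdg (−1.08 to −0.97), −0.57 for Tet3 (−0.68 to −0.45) and −4.48 for Dnmt3l (−4.72 to −4.26). It was −0.15 for Dnmt1, −0.27 for Uhrf1, −0.15 for Dnmt3b, −0.24 for Tet2 and 0.21 for Dnmt3a. Of 16577 genes with at least 50 UMIs, 10.5% were at least 2-fold lower in the Tet-TKO library and 4.07% at least 2-fold higher. Against that share 3 of the 9 members (Tet1, Tdg and Dnmt3l) were at least 2-fold lower and 0 at least 2-fold higher, in 1 pair of libraries. The WT host library held 1895 extraembryonic ectoderm (ExE ectoderm)-like cells and the Tet-TKO library 14. Without ExE ectoderm-like and endoderm-like cells the ratio of Dnmt3a changed sign to −0.26, that of Dnmt3l shrank to −1.11, those of Tet3 and Dnmt3b went to −0.88 and −0.30, and those of Tet1 and Tdg were −1.19 and −1.14.

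At E8.5 genotype was tested over the library sums with edgeR's quasi-likelihood test, adjusted over 21075 genes, with calls made from an adjusted p of 0.01 down and a 2-fold change up. In such sums fewer cells of a type and less RNA per cell cannot be told apart. By that rule 2.06% of all genes were called lower and 0.588% higher in Tet-TKO cells, and 0 of the 9 members were called. At an unadjusted p of 0.05 there were 3 members (Dnmt3l, Tdg and Tet2), as were 26.7% of all genes. DESeq2 called 1 of 9 (Dnmt3l, lower), where it called 2.86% of all genes lower and 1.23% higher, and 5 of 9 had an unadjusted p of 0.05, as had 16.5% of all genes. The library sums of 2 members did not overlap and were lower in Tet-TKO cells (Dnmt3l and Tdg), as in 17.9% of all genes, and those of 2 did not overlap and were higher (Dnmt3a and Tet2), as in 23.1%. Dnmt3l had a log2 fold change of −3.92 and an adjusted p of 0.0104 in edgeR's test. It was the only member at an adjusted p of 0.05 or less, a level that 6.75% of all genes reached in the lower and 3.74% in the higher direction. The change of Tdg was −0.69 ± 0.20 (SE) on the log2 scale at an adjusted p of 0.0794, and that of Tet1 was −0.59 ± 0.27 (SE) at an adjusted p of 0.220. The log2 fold changes of the others were 0.67 for Tet2 (adjusted p = 0.139), 0.51 for Dnmt3a (0.216), 0.27 for Tet3, 0.08 for Dnmt1, −0.15 for Uhrf1 and −0.30 for Dnmt3b. Tet-TKO libraries 3 and 4 were also left out, a choice made after the data were seen. Tet1 was then called at −1.03 (edgeR adjusted p = 0.00597), where 1.43% of all genes were called lower. Tdg was −0.98 with an adjusted p of 0.00523, and Dnmt3l was −3.38 with an adjusted p of 0.0249. In that fit Tet2 was 0.32, Dnmt3a 0.16, Tet3 0.0015 and Dnmt3b −0.03 on the log2 scale.

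Library sums mix cell classes, and the classes were not equally filled, so the members were compared again with each class at the same weight. The 24 classes with at least 10 cells in all 6 E8.5 libraries were averaged. Clusters 29 and 38, too shallow for the class orders below, were among them at the same weight. WT host means of cluster 38 were 287 CPM of Uhrf1, 111 CPM of Tet3 and 82.2 CPM of Tet1. The highest means of the deeper WT host classes were 182, 44.6 and 37.4 CPM. With limma, log2(CPM + 1) was tested over the 13405 genes with a mean of at least 1 CPM. Dnmt3l fell under that minimum. Of the other 8 members 0 were called, while 0.366% of all genes were called lower and 0.269% higher. Of these 8, 3 had an unadjusted p of 0.05 or less (Tet1, Tdg and Tet2), as had 13.8% of all genes. The levels of 3 did not overlap and were lower in Tet-TKO cells (Tet1, Tdg and Uhrf1), as in 17.4% of all genes, and Tet2 alone did not overlap and was higher, as in 10.6%. The equal-class level of Tdg was 83.5 and 88.1 CPM in the WT host libraries and 36.3, 39.3, 55.7 and 67.3 CPM in the Tet-TKO libraries, a log2 difference of −0.82 (limma adjusted p = 0.181). The equal-class level of Tet1 was 29.6 and 27.6 CPM against 15.6, 14.0, 20.6 and 20.3 CPM. That difference was −0.69 on the log2 scale (limma adjusted p = 0.123), and here the Tet1 levels of libraries 3 and 4 lay below the WT host ones too. In the fit without libraries 3 and 4, chosen after the data were seen, Tdg was called with a difference of −1.17 (limma adjusted p = 2.09e-05). Tet1 was −0.96 there (limma adjusted p = 6.03e-04), and 1.39% of all genes were called lower. Dnmt3a had a smaller difference at equal class weight, with 26.0 and 29.0 CPM in the WT host and 24.2, 25.7, 44.7 and 42.3 CPM in the Tet-TKO libraries, a log2 difference of 0.25 that turned to −0.11 without libraries 3 and 4. Tet3 was at 0.01 and turned to −0.38, Dnmt1 was at 0.08 and turned to −0.08, Uhrf1 was at −0.23, Dnmt3b was at −0.23 and moved to −0.01, and Tet2 was at 0.57 and moved to 0.33.

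Within single classes the direction of Tdg and Tet1 was the same throughout. Of 30 classes with at least 2 libraries of each genotype, 29 gave a test of Tdg and 27 a test of Tet1. In 29 of 29 classes the Tet-TKO level of Tdg was the lower one, the log2 fold changes running from −1.39 to −0.32 around a median of −0.81. Tet1 was lower in 27 of 27, from −1.64 to −0.28 with a median of −0.84. Classes share their libraries and are not independent. Of 5620 genes tested in at least 27 classes, 1.78% were lower in every one, and 0.783% were lower in every one with a median log2 fold change of −0.5 or less.

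Tet2 was higher in 22 of 23 classes with a median of 0.73, but without libraries 3 and 4 its median was 0.25. Uhrf1 was lower in 27 of 30 classes with a median of −0.25, and Dnmt3b in 25 of 30 with a median of −0.21. The share of all genes with such counts is not given here, and the classes share their libraries. At equal class weight the limma adjusted p was 0.359 for Tet2, 0.367 for Uhrf1 and 0.661 for Dnmt3b. Dnmt1 (20 of 30 classes higher, median 0.03), Dnmt3a (19 of 29, median 0.08) and Tet3 (20 of 29, median 0.08) sat around zero. Without libraries 3 and 4 the medians were −0.14 for Dnmt3a, −0.15 for Tet3 and 0.02 for Dnmt3b.

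Of the 227 tests of members in classes, edgeR called 1, which was lower in Tet-TKO cells. Over all 289496 tests of genes in classes 0.352% were called lower and 0.234% higher. At an adjusted p of 0.05 or less there were 10 of 227, all lower in Tet-TKO cells, where 0.943% of all tests were lower and 0.616% higher. They were Tdg in 4 classes, Tet1 in 3, Dnmt3b in 2 and Uhrf1 in 1. The call was Tdg in cluster 40, a class led by Wnt8a, Tbx4 and Nkx1-2 and left without a name, at 67.5 and 75.5 CPM in the WT host libraries and 27.6 and 35.7 CPM in the Tet-TKO libraries with enough cells (log2 fold change −1.11, adjusted p = 0.00541). That call rests on 2 of the 4 Tet-TKO libraries, and WT host cluster 40 was too shallow for the class orders below. In cluster 7, a class led by Hbb-bh0, Gata1 and Klf1, Tdg had an adjusted p of 0.00733 at a log2 fold change of −0.94, Dnmt3b one of 0.0488 at −0.87 and Uhrf1 one of 0.0353 at −0.48. Tet1 passed 0.05 in allantois-like cells (24.4 and 21.6 CPM in WT host against 7.52, 7.39, 10.8 and 14.6 CPM in Tet-TKO cells, adjusted p = 0.0357), mesenchyme-like cells (−1.29, adjusted p = 0.0297) and cardiomyocyte-like cells (−1.04, adjusted p = 0.0489). In allantois-like cells the genotypes did not overlap, with libraries 3 and 4 included. In the fits without libraries 3 and 4, chosen after the data were seen, 26 of 216 tests of members were called. All were lower, 16 of Tdg and 10 of Tet1. Of all tests in those fits 0.899% were called lower and 0.609% higher.

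**Figure D2:**
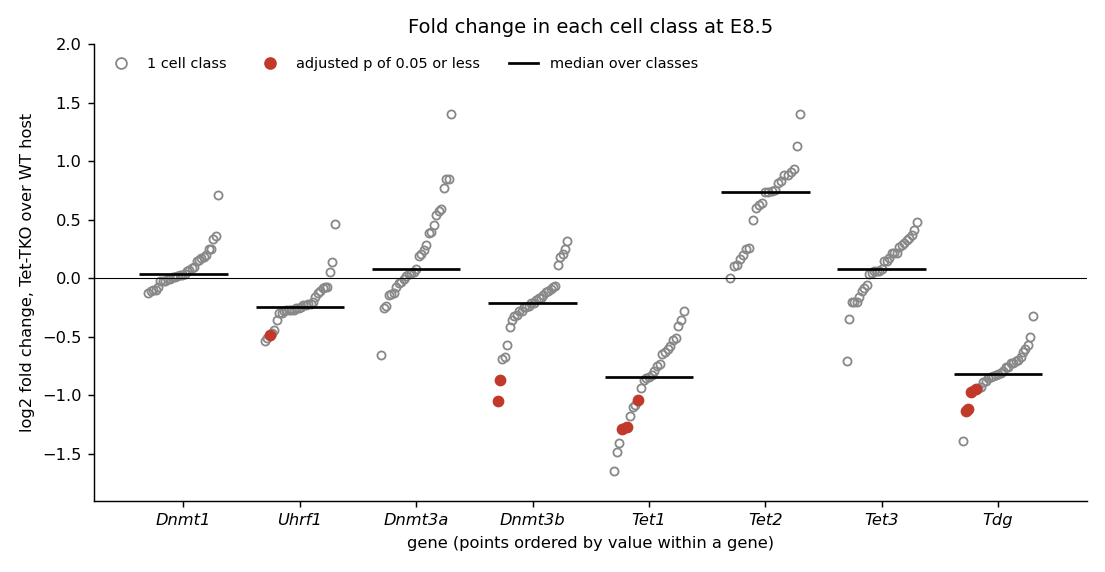
Log2 fold change of Tet-TKO over WT host in each E8.5 cell class (points), by gene, with the median over classes as a line and filled red points for an edgeR adjusted p of 0.05 or less. Every point of Tet1 (27 classes) and Tdg (29 classes) lies below 0, and those of Dnmt1, Dnmt3a and Tet3 lie on both sides.

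Tdg has a near copy that bears on its count, looked at after its values were seen. Tdg-ps, a processed pseudogene at chr15:82516311-82519278 (plus strand), was aligned to the Tdg-208 transcript of 3502 bases and matched it over 2968 bases with 98.7% identity, 39 bases differing. Of the 90-base windows of that transcript, 31.7% occurred unaltered in Tdg-ps, so a read from there cannot be placed in 1 of the copies. The alignment covered bases 57 to 3024 of the transcript, and its last 478 bases, at the 3′ end, lay outside the copy. Tdg-ps stood at 0.212 CPM in E7.5 WT host and 3.97 CPM in E7.5 Tet-TKO cells. At E8.5 it was 0.236 and 0.118 CPM in the WT host libraries and 5.23, 4.52, 2.10 and 2.41 CPM in the Tet-TKO libraries. All Tet-TKO libraries were far above both WT host libraries (edgeR log2 fold change 4.28, adjusted p = 0.00994), and Tdg-ps was higher in 17 of 17 classes. At equal class weight the limma difference was 1.71 (adjusted p = 0.0662). That value is on log2(CPM + 1), which shrinks differences at low levels, and cannot be set against the edgeR fold change. The equal-class levels were 5.73, 4.61, 2.01 and 2.19 CPM in the Tet-TKO libraries and 0.449 and 0.226 CPM in the WT host libraries. The 2 E8.5 Tet-TKO libraries with the least Tdg held the most Tdg-ps. With the UMIs of both copies added, the Tdg sum was 40.0, 43.4, 58.0 and 68.4 CPM in the E8.5 Tet-TKO libraries and 71.7 and 75.5 CPM in the WT host libraries, and no library overlapped. The log2 fold change of the sum was −0.59 over library sums, the median within classes was −0.69, and 0 of the tests of members in classes were then called (9 at an adjusted p of 0.05 or less). At E7.5 the log2 ratio moved from −1.03 to −0.90. How many reads of either copy were left out as ambiguous was not tested. The 3′ end of Tdg overlaps Glt8d2 on the other strand, a gene at 0.0855 to 0.553 CPM in all libraries.

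**Figure D3:**
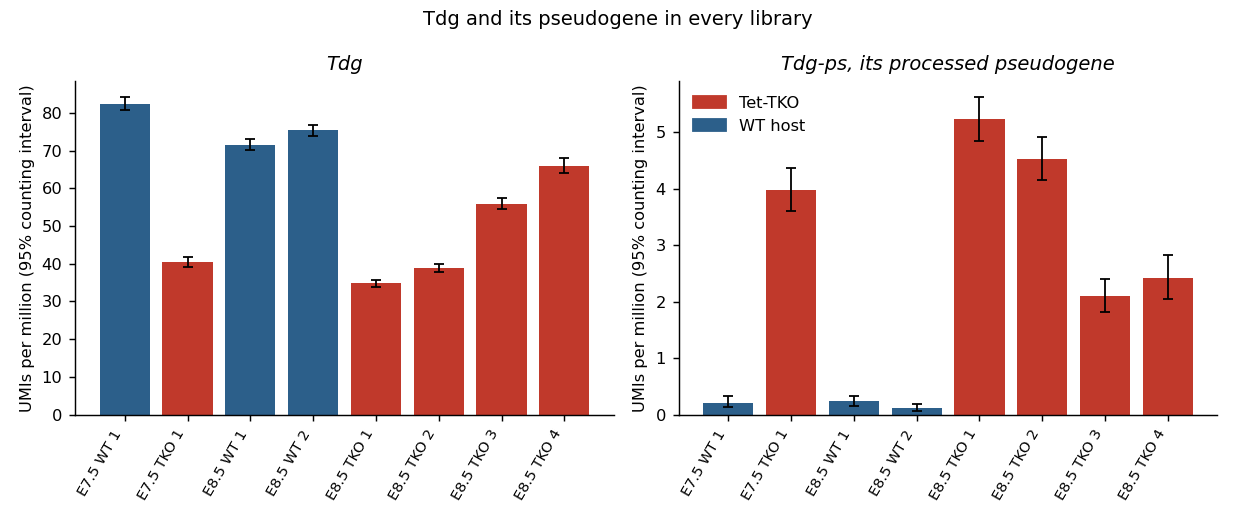
Level (CPM) of Tdg (left) and of its processed pseudogene Tdg-ps (right) in every library, with 95% counting intervals as error bars, WT host in blue and Tet-TKO in red. Tdg is highest in the 3 WT host libraries (71.5 to 82.5 CPM), where Tdg-ps is at most 0.236 CPM, and Tdg-ps is 2.10 to 5.23 CPM in the 5 Tet-TKO libraries.

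Cell classes were built by clustering and called "X-like" from listed markers, and the following levels of WT host cells at E8.5 are means of the 2 libraries over the 27 classes with enough depth. They show each member's own pattern over the embryo. Dnmt1 varied least outside the extraembryonic endoderm: it was highest in blood progenitor-like cells (121 and 141 CPM) and neural crest-like cells (120 and 129 CPM), and lowest in visceral or yolk sac endoderm-like cells (39.8 and 48.3 CPM), the only class whose range lay apart from its neighbour's at the low end. Of its 26 neighbouring pairs in that order, 25 overlapped. Uhrf1 shared its lowest class with Dnmt1 but not the rest of the order, and went from 182 CPM (mean) in neuromesodermal progenitor-like cells and 169 CPM in brain-like cells to 92.9 CPM in cardiomyocyte-like cells and 73.7 CPM in visceral or yolk sac endoderm-like cells. The last 2 classes were separate from each other and from the rest. Tet-TKO cardiomyocyte-like cells were also near the bottom of their own order, with a mean of 69.2 CPM.

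Dnmt3a spanned 11.5-fold over the WT host classes. It peaked in haematoendothelial progenitor-like cells (59.0 and 72.0 CPM), followed by cluster 16 (45.6 and 58.4 CPM), a class led by Npr3, Alx1 and Osr1, and cardiomyocyte-like cells (33.5 and 41.4 CPM). The top 2 classes did not overlap with each other or with the next. It was lowest in erythroid-like cells (6.28 and 6.33 CPM) and cluster 7 (5.48 and 5.93 CPM). Dnmt3b had another order, with ExE ectoderm-like cells (192 and 215 CPM), brain-like cells (139 and 224 CPM) and surface ectoderm-like cells (144 and 147 CPM) on top and with cluster 7 (22.1 CPM, mean) and erythroid-like cells (21.8 CPM, mean) at the bottom. The range of brain-like cells overlapped those of both other classes, which did not overlap each other. Cardiomyocyte-like cells, next in that order for Dnmt3a, were among the lowest 4 classes for Dnmt3b (33.7 CPM, mean), and surface ectoderm-like cells, among the top 3 for Dnmt3b, were among the lowest 4 for Dnmt3a (13.1 CPM, mean). Over the 27 classes the log2 levels of the 2 de novo enzymes had a Pearson r of 0.11.

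At E7.5 both de novo enzymes had their highest level in epiblast-like cells of either genotype. There Dnmt3b reached 1635 CPM in WT host and 1128 CPM in Tet-TKO cells, and Dnmt3a 124 and 84.6 CPM. The next named class was spinal cord-like cells, at 1305 and 1016 CPM for Dnmt3b and 76.6 and 63.7 CPM for Dnmt3a. An unnamed class of very shallow cells, cluster 6, stood between them for Dnmt3a in both genotypes and for Dnmt3b in WT host cells only. Erythroid-like cells held the least Dnmt3b in WT host cells (91.7 CPM).

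Dnmt3l was an extraembryonic gene in these embryos. ExE ectoderm-like cells held 3471 of the 3696 Dnmt3l UMIs of the E7.5 WT host library (93.9%), at 110 CPM, and 82.0% and 82.5% of those in E8.5 WT host libraries 1 and 2, from 139 and 48 cells at 107 to 112 CPM. The level in that class was thus close at both stages. The E8.5 Tet-TKO libraries held 0, 1, 0 and 0 ExE ectoderm-like cells. Embryonic stem cells injected into a blastocyst are known to contribute little to the trophoblast. Outside this class the E8.5 WT host libraries held 0.594 and 0.191 CPM of Dnmt3l, against 0.234, 0.171, 0.0838 and 0.0615 CPM in the Tet-TKO libraries, and the genotypes overlapped. Without erythroid-like and ExE ectoderm-like cells the edgeR log2 fold change was −1.55 with an adjusted p of 0.206, against −3.92 with them. At E7.5 the levels outside the class were 3.13 CPM in WT host and 1.41 CPM in Tet-TKO cells. The 14 ExE ectoderm-like cells of the E7.5 Tet-TKO library held 20 of its 168 Dnmt3l UMIs, and their tdTomato level was 14.0 CPM against 72.6 CPM in epiblast-like cells of that library. Beside ExE ectoderm-like cells, the E7.5 WT host library had Dnmt3l in 20 blood progenitor-like cells, 31 UMIs at 54.7 CPM, a class of few cells.

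Each TET gene had a pattern of its own over the E8.5 WT host classes. Tet1 was highest in cluster 18 (32.3 and 42.6 CPM), a class led by Pax9, Nkx2-3 and Foxe1, in cluster 33 (32.8 and 39.9 CPM), led by Calca, Nkx2-9 and Foxa2, and in cluster 17 (34.4 and 34.6 CPM), led by Crabp1 and Egr2. The ranges of these 3 classes overlapped. It was lowest in blood progenitor-like (9.38 CPM, mean), erythroid-like (6.12 CPM) and cluster 7 cells (4.86 CPM). Tet2 was highest in cluster 16 (12.1 and 17.2 CPM) and endothelium-like cells (9.502 and 12.2 CPM), which did not overlap with the next class, and lowest in visceral or yolk sac endoderm-like cells (0.627 and 1.78 CPM). Tet3 was highest in cluster 33 (42.8 and 46.3 CPM), apart from the next class, allantois-like cells (36.9 and 39.5 CPM), and lowest in ExE ectoderm-like cells (4.98 and 6.77 CPM). Tet1 and Tet2 went opposite ways in endothelium-like cells, where Tet1 was among the lowest 4 classes (12.8 CPM, mean) and Tet2 was next to the top. At E7.5 Tet3 stood out in WT host notochord-like cells at 67.7 CPM, from 44 UMIs in 66 cells, against 27.2 CPM in the next class. The E8.5 WT host mean of Tet3 was 80.2 CPM in notochord-like cells and 111 CPM in cluster 38, classes too shallow for the order above. Tet2 was near its lowest in epiblast-like cells of both genotypes at E7.5 (0.688 CPM in WT host, 2 UMIs, and 0.692 CPM in Tet-TKO cells, 8 UMIs), where Tet1 was 56.8 and 23.9 CPM.

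Tdg varied only 2.13-fold over the 27 classes, from somitic mesoderm-like cells (98.0 and 113 CPM) and cluster 16 (96.4 and 106 CPM) to visceral or yolk sac endoderm-like cells (56.6 CPM, mean) and erythroid-like cells (47.7 and 51.3 CPM). In Tet-TKO cells the highest class mean of Tdg, 57.0 CPM in cluster 17, lay below the WT host mean of all but 2 of these classes.

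**Figure D4:**
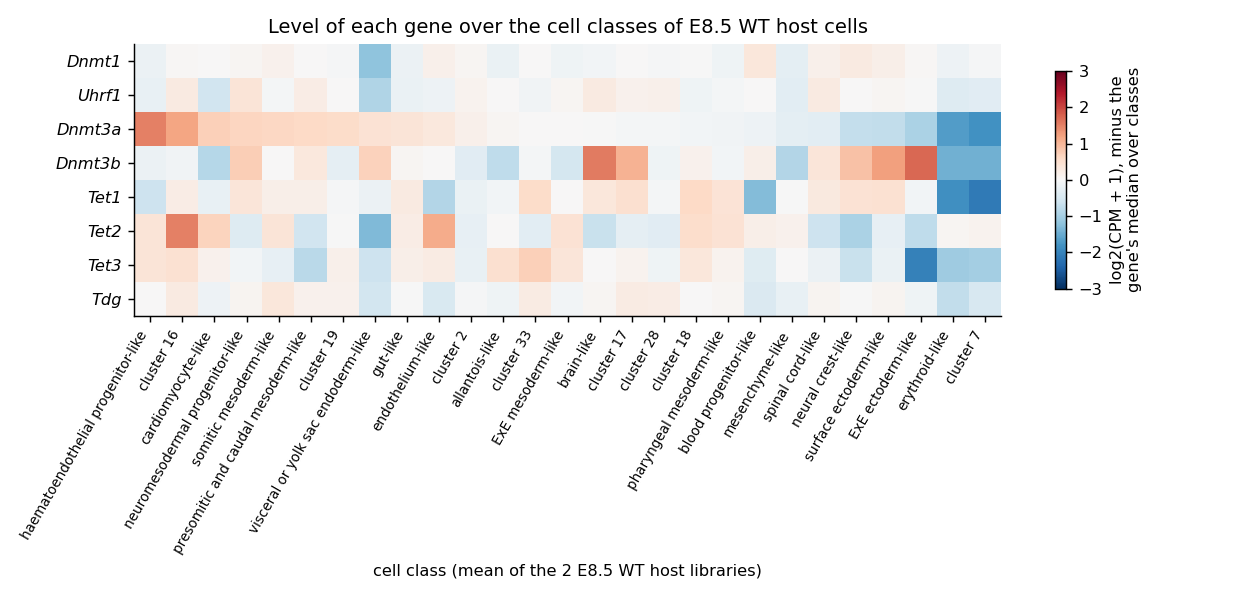
Level of 8 members (rows) in each cell class of E8.5 WT host cells (columns, ordered by Dnmt3a) as log2(CPM + 1) minus the gene's median over the 27 classes, from the mean of the 2 libraries. Dnmt1, Uhrf1 and Tdg are near their median in most classes, Dnmt3a falls to the right with erythroid-like cells and cluster 7 last, and Dnmt3b is highest in ExE ectoderm-like and brain-like cells.

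Several members differed between the classes of the blood lineage. The 4 classes used here were placed along the primitive blood lineage by their markers. Haematoendothelial progenitor-like cells had the receptor gene Kdr (368 to 632 CPM) and blood progenitor-like cells the factor gene Gata1 (86.4 to 147 CPM). The embryonic globin gene Hbb-bh1 was 13793 to 31072 CPM in cluster 7 and 11653 to 41087 CPM in erythroid-like cells. These ranges overlapped. Cluster 7 was the higher class in Tet-TKO libraries 2 and 3, and erythroid-like cells were the higher class in both WT host libraries. The order of cluster 7 and erythroid-like cells is thus not settled by this marker. Dnmt3a went from 59.0 and 72.0 CPM in haematoendothelial progenitor-like WT host cells to 16.4 and 23.5 CPM in blood progenitor-like cells, 5.48 and 5.93 CPM in cluster 7, and 6.33 and 6.28 CPM in erythroid-like cells. In Tet-TKO cells Dnmt3a went from 44.0, 56.7, 102 and 86.8 CPM in libraries 1 to 4 to 17.8, 15.4, 26.0 and 17.6 CPM in blood progenitor-like cells, and cluster 7 held 7.29, 2.82 and 9.31 CPM in libraries 1 to 3. The level after the first step was lower in all 6 libraries, between 0.202 and 0.406 of the starting level.

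Tet3 took the same first step, to 0.488 and 0.685 of its haematoendothelial level in the WT host and 0.258 to 0.466 in the Tet-TKO libraries. Tet1 went from 17.8 and 13.6 CPM to 9.99 and 8.77 CPM, then 5.56 and 4.17 CPM, in WT host cells. WT host erythroid-like cells held 7.57 and 4.68 CPM of Tet1. In Tet-TKO cells Tet1 started at 4.30 to 8.74 CPM, with no common direction at the first step. It had 4.14 and 1.43 CPM in erythroid-like cells of Tet-TKO libraries 2 and 3, from only 7 UMIs together. Dnmt3b was higher in WT host blood progenitor-like cells (65.8 and 73.9 CPM, from 52.3 and 55.2 CPM), was 0.938, 0.728, 1.44 and 0.726 times its starting level there in Tet-TKO libraries 1 to 4, and was at 24.6 and 19.7 CPM in WT host cluster 7. Tet-TKO libraries 1 to 3 held 9.48, 13.7 and 15.5 CPM of Dnmt3b in cluster 7, below both WT host libraries (the test is given above). Dnmt1 was higher in blood progenitor-like than in haematoendothelial progenitor-like cells in all 6 libraries, by 1.51 and 1.36 times in the WT host and 1.045 to 1.43 times in Tet-TKO cells, and Tet2 was 1.21 and 0.455 times its starting level there in the WT host libraries and 1.154 to 1.28 times in the Tet-TKO libraries. In erythroid-like WT host cells Dnmt1 was 91.8 and 95.3 CPM, 1.145 and 0.921 of the haematoendothelial level, Uhrf1 was 111 and 103 CPM, and Tet2 was 4.88 and 4.62 CPM, 0.763 and 0.758 of the haematoendothelial level. CPM is a share of all UMIs, globin UMIs included, and was not corrected for them. The globin gene Hba-x stood at 55932 and 78684 CPM in these cells and at 267 and 604 CPM in WT host haematoendothelial progenitor-like cells. Erythroid-like cells numbered 718 and 1837 in the WT host libraries, and among Tet-TKO libraries only 2 and 3, with 60 and 25 cells, had enough to be plotted.

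**Figure D5:**
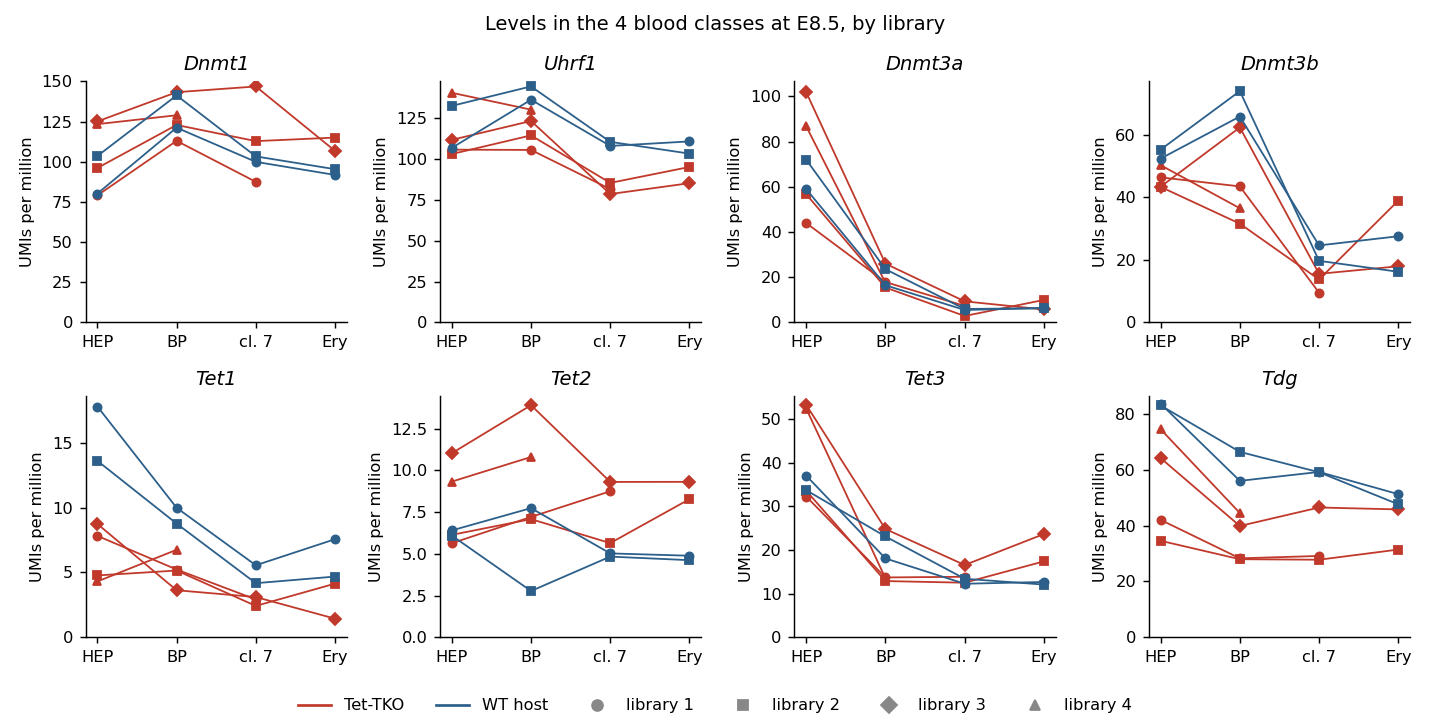
Level (CPM) of 8 members in haematoendothelial progenitor-like (HEP), blood progenitor-like (BP), cluster 7 (cl. 7) and erythroid-like (Ery) cells at E8.5, 1 line per library, WT host in blue and Tet-TKO in red; classes under 10 cells or 500000 UMIs in a library are left out. Dnmt3a is lower after the first step in all 6 libraries, and Dnmt1 is higher, by 1.045 to 1.51 times.

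Primordial germ cell-like cells, in which methylation is known to be lost genome-wide, were few and were read by their counts. In E8.5 Tet-TKO libraries 1 to 4 they numbered 68, 74, 24 and 9. Uhrf1 was 63.8, 32.5, 53.8 and 23.9 CPM there, from 56, 24, 35 and 13 UMIs, below every other class of Tet-TKO cells by its mean over libraries 1 to 3 (50.0 CPM). Dnmt3b was 42.1, 12.2, 15.4 and 14.7 CPM. Dnmt1 was 84.2, 133, 120 and 180 CPM there, at rank 9 of 26 classes by its mean over libraries 1 to 3 (112 CPM). Tet3 had 3, 2, 6 and 5 UMIs (2.71 to 9.23 CPM), also the lowest class mean. Tet1 was 13.7, 17.6, 49.2 and 25.7 CPM, highest in library 3. The WT host libraries had 24 and 9 such cells with 4 and 0 Uhrf1 UMIs, 16 and 10 Dnmt1 UMIs and 8 and 6 Tet1 UMIs, too few to compare the genotypes. At E7.5 the 87 Tet-TKO cells of this class had the lowest Uhrf1 (54.9 CPM), Dnmt3b (28.4 CPM), Tet3 (3.31 CPM) and Tdg (25.8 CPM) of the 22 classes, and Dnmt1 (77.4 CPM) was next to the lowest.

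The members' patterns over WT host classes at E8.5 were compared by Pearson's r of log2(CPM + 1), first over 34 classes with at least 10 cells in both libraries and then over the 27 deeper ones. Classes share libraries and differ in depth, so these values are a description. Tet1 and Tdg were the closest pair (r = 0.81 and 0.79), and Dnmt1 and Uhrf1 the next (0.77 and 0.65). Dnmt3b and Tet1 had 0.55 and 0.57. Tet1 and Tet2 had −0.60 over all classes and −0.20 over the deeper ones, which shows how much the shallow classes weigh. The genes most like each member were sought among 7730 genes with a mean of at least 10 CPM. These r values are over the 34 classes, shallow ones included. For Dnmt1 they were Srrt and Zfp992 (r of 0.87 and 0.86), and for Uhrf1 Brca2, Ick and Api5 (0.89, 0.87 and 0.86). For Dnmt3a they were Zbed3, Sptssa and Elf2 (0.88, 0.86 and 0.85), for Dnmt3b Aar2, Epop and Riox2 (0.72, 0.69 and 0.69), and for Dnmt3l Hat1, Utf1 and Gsto1 (0.85, 0.84 and 0.82). For Tet1 they were Spred1, Rhbdd2 and Spg20 (0.93, 0.93 and 0.92), for Tet2 Svil, Nsmaf and Hadha (0.76, 0.75 and 0.73), for Tet3 Ahcyl1, Sft2d3 and Ppp1r9a (each 0.83), and for Tdg Ehmt1, Khdrbs1 and Dcakd (0.93, 0.90 and 0.90). Dnmt3l was 110 CPM in ExE ectoderm-like cells and at most 1.25 CPM in every other class, so its r values rest mostly on that 1 class.

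The other genes of the pathway were taken from a list of 58, in groups by role. Over the E8.5 library sums 54 were tested, 1 was called lower and 0 higher, a share near the 2.06% of all genes called lower. At an adjusted p of 0.05 or less 4 were lower and 1 higher, where 6.75% of all genes were lower and 3.74% higher. The called gene was D2hgdh, whose enzyme clears 2-hydroxyglutarate, an inhibitor of TET enzymes. It was 5.63 and 4.87 CPM in the WT host libraries and 2.22, 1.73, 2.18 and 2.03 CPM in the Tet-TKO libraries, with no overlap (log2 fold change −1.44, edgeR adjusted p = 0.00374), and 6.76 against 2.31 CPM at E7.5. With Tet-TKO libraries 1 and 2, and 3 and 4, summed, 0 of 20799 genes were called lower and 0 higher over library sums. That fit called no gene at all, so the absence of D2hgdh there does not bear on it. At equal class weight D2hgdh was −0.99 on log2(CPM + 1), a scale that shrinks differences at low levels (limma adjusted p = 0.0796). There 0 of 51 pathway genes were called by limma, 8 had an unadjusted p of 0.05 or less, as had 13.8% of all genes, and 1 had an adjusted p of 0.05 or less, where 1.51% of all genes were lower and 0.694% higher at that level. That gene was Ahcy, which clears S-adenosylhomocysteine, the by-product of every methyltransferase. Its library sums were 25.5 and 27.4 CPM in WT host and 17.5, 16.9, 15.7 and 19.1 CPM in Tet-TKO cells, a log2 difference of −0.77 at equal class weight (adjusted p = 0.0161). Ahcy lay below the WT host in libraries 3 and 4 as well.

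Of the 7 genes of methyl donor supply, 3 were at an adjusted p of 0.05 or less over library sums, where 6.75% of all genes were lower and 3.74% higher. All 3 were lower: Ahcy (−0.70), Shmt1 (−0.46) and Shmt2 (−0.77). The last 2 encode serine hydroxymethyltransferases that feed one-carbon units (named after their values were seen). At equal class weight Shmt1 was −0.24 (limma adjusted p = 0.391) and Shmt2 −0.39 (limma adjusted p = 0.216). Of the 7 maintenance partners 1 was, Dppa3 (log2 fold change 2.01, adjusted p = 0.0273, also named after its value was seen), an antagonist of UHRF1 in germ cells and early embryos. At equal class weight Dppa3 was 0.585, 0.531, 0.194 and 0.158 CPM in the Tet-TKO libraries and 0.215 and 0.250 CPM in the WT host libraries, and the genotypes overlapped. The group of readers (8 genes), of targeting factors (8 genes), of base excision repair (10 genes) and of deaminases and Gadd45 (5 tested) had 0. The largest equal-class differences beside D2hgdh and Ahcy were Setd2 (0.53) and Nsd1 (0.44), which methylate the histone H3 lysines read by DNMT3 enzymes, Morc3 (0.46) and Apobec2 (−0.47). Their limma adjusted p-values lay between 0.251 and 0.492. Nsd1 was 89.5 and 91.4 CPM in the WT host and 107, 111, 177 and 162 CPM in the Tet-TKO library sums, and Setd2 and Morc3 were likewise highest in libraries 3 and 4. The median log2 fold change was 0.03 over the 54 pathway genes and 0.02 over all genes tested in library sums.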

How the data were processed

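Single cells were profiled with 10x Genomics 3′ chemistry (version given by the study as v3), and the authors aligned reads to mm10 with the GRCm38.92 annotation and a tdTomato sequence. The authors deposited UMI counts as Cell Ranger wrote them, 1 matrix per library (version 3.1.0 per the file headers), with no normalization. The members and the gene lists were chosen with earlier results of these data known.

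Here cells were kept from 1500 UMIs upwards, up to a mitochondrial share of 30% and a ribosomal share of 35%. No doublet caller was run. Cells of each stage were clustered (2500 variable genes, 50 principal components, mutual nearest neighbours with k of 20, Leiden resolution 2, leidenalg 0.10.2), and clusters were named "X-like" from listed markers by thresholds set after the clusters were seen. UMI counts were summed per library, or per library and class with at least 10 cells, and tested with edgeR 4.0.16 (quasi-likelihood) in R 4.3.3. Equal-class levels were tested as log2(CPM + 1) with limma 3.58.1, and DESeq2 1.42.0 was an alternative. P-values were adjusted by Benjamini-Hochberg over all genes of a fit. Intervals cover counting error at 95% only. Class orders used class sums of at least 500000 UMIs per library.

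The text names the 9 members, called pathway genes, the 6 pathway genes with the largest equal-class difference and the 3 genes most like each member in pattern, except for items not reported here; others are marked as chosen after their values were seen. In counts simulated from the library sums, 88.1% of genes changed by 1 on the log2 scale were recovered over 20721 genes, and 11.9% of those changed by 0.5. Recovery did not require the 2-fold limit of a call. At equal class weight 79.1% of genes changed by 1 were recovered at a median fitted change of 0.907. The share that would be called with that limit is thus not given. In the real fit Ahcy, at −0.70 ± 0.12 (SE), had an edgeR adjusted p of 0.0165, above the limit of a call. The SEs of Tdg (0.20), Dnmt3a (0.23), Tet2 (0.24) and Tet1 (0.27) were larger. The lack of a call thus does not show that these members changed by less than 2-fold. Alternatives are given in the closing section.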

Additional observations from a re-analysis of the deposited data

Results flagged for a closer look

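Tet2 went opposite ways at the 2 stages. At E7.5 its log2 ratio of Tet-TKO to WT host was −0.24, with a counting interval from −0.49 to −6.2e-05, from 263 and 306 UMIs in 1 library each. At E8.5 all 4 Tet-TKO libraries lay above both WT host libraries. The difference between the stages was not tested, and with a minimum of 3000 UMIs per cell the E7.5 interval, from −0.48 to 0.01, included 0. Libraries 3 and 4 were 2.18 times and libraries 1 and 2 were 1.24 times the WT host mean of Tet2 at E8.5.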

How the results depend on the processing

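Over library sums 0 members were called, but 1 was called by DESeq2, 1 with no filter on low counts (2.07% of all genes were called lower), 1 without libraries 3 and 4 (chosen after seeing the data) and 1 at an adjusted p of 0.05 with no minimum fold. With Tet-TKO libraries 1 and 2, and 3 and 4, summed, 0 of 20799 genes were called lower and 0 higher over library sums. D2hgdh and Tdg-ps, which passed the threshold in the main fit, were thus not called there. A fit that calls no gene cannot set them apart from other genes. At equal class weight 0 members were called, and 1 without libraries 3 and 4. With the library pairs summed, 0.0223% of all genes were called lower and 0.0371% higher at equal class weight. Pathway genes called at equal class weight numbered 0. With at least 30 cells per class 1 was called, where 0.526% of all genes were called lower and 0.328% higher. Without libraries 3 and 4 it was 1 as well, where 1.39% of all genes were called lower and 0.53% higher. At an adjusted p of 0.05 it was also 1, where 1.51% of all genes were lower and 0.694% higher. Tests of members within classes gave 1 call, and 8 with no filter on low counts (0.595% of all tests were called lower). There were 5 at Leiden resolution 1 (0.615%), 4 with no correction between libraries (0.504%) and 26 without libraries 3 and 4 (0.899%). There were 0 with Tdg-ps added to Tdg (0.351%) and 10 at an adjusted p of 0.05 (0.943%). With 1 library left out there were 0 to 4, where 0.0726% to 0.352% of all tests were called lower. The causes were not tested.

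Changes of sign concerned small differences. Over library sums Dnmt1 turned to −0.0525 without WT host library 1 (−0.0525 to 0.21 with 1 library left out). At equal class weight Dnmt1 turned to −0.00397 without that library (−0.00397 to 0.16 with 1 left out) and to −0.0782 without libraries 3 and 4, Dnmt3a to −0.11 without libraries 3 and 4, and Tet3 to −0.11 without Tet-TKO library 3, −0.16 without library 4, −0.04 without WT host library 1 (−0.16 to 0.16 with 1 left out) and −0.38 without libraries 3 and 4. Of the members' library-sum changes, 129 recomputed values kept direction and side of the threshold, 5 passed the threshold only in the alternative and 2 changed sign. At equal class weight the numbers were 108, 2 and 11.

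The replicate block used the labels' library numbers, which the labels do not tie to shared embryos. The study sets each Tet-TKO sample against a matching WT host embryo for cell type proportions. It does not say which libraries match. Deviations correlated at 0.383 for number 1 and −0.102 for number 2 over 21075 genes, and libraries 3 and 4 then carry no information on genotype. Under the replicate block 2 members were called over library sums (Dnmt3l and Tet1), 1 at equal class weight (Tdg), 1 pathway gene, and 35 tests within classes, all lower. In those fits 5.71% of all genes, 1.4% of all genes and 1.5% of all tests were called lower. Dnmt3l and Tet1 were not called with the Tet-TKO library pairs summed. That fit called 0 of 20799 genes lower and 0 higher over library sums, so it does not bear on Dnmt3l or Tet1. Tet3 turned to −0.00489 over library sums and to −0.33 at equal class weight, Dnmt1 to −0.0738, Dnmt3a to −0.13 and Dnmt3b to 0.0496.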
